A study of Mus musculus with 90 samples.

Results

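Compaction of the mouse embryo rests on a small set of adhesion and polarity genes, and 10 of them were followed here from the oocyte to the 8-cell (8c) stage: Cdh1, Ctnna1, Ctnnb1, Ctnnd1, Tjp1, Ezr, Pard3, Pard6b, Prkci and Prkcz. They were chosen by name and found by symbol among the 24422 genes of the count table, and all 10 passed the filter on low counts, as did 16511 genes in all. The study sequenced the 5′ ends of transcripts in single metaphase II (MII) oocytes, 2-cell (2c) embryos and 8c embryos to ask what loss of the maternal transcription factor Plag1 does to early development. The 6 groups were WT and matPlag1KO at each stage. WT oocytes came from WT females and matPlag1KO oocytes from Plag1 knockout females of a CD-1 colony, and the 2c and 8c embryos of both came from matings of those females with WT males, so that embryos labelled matPlag1KO lack only the maternal allele. All females had been superovulated, cumulus cells had been removed with hyaluronidase, oocytes were taken without culture 21 to 23 h after hCG, and embryos were cultured and picked at 45 to 47 h (2c) and 71 to 73 h (8c). The labels do not tie samples to females, so the spread between samples can be smaller than that between females.

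E-cadherin, encoded by Cdh1, is the adhesion molecule that draws blastomeres together when the 8c embryo compacts. Its cytoplasmic tail binds beta-catenin (Ctnnb1), which binds alpha-catenin (Ctnna1) and through it the actin cortex, while p120-catenin (Ctnnd1) holds the cadherin at the membrane. At the same stage each blastomere gains an apical domain that contains the Par complex, made of the scaffolds Pard3 and Pard6b and an atypical protein kinase C (aPKC, encoded by Prkci and Prkcz), together with ezrin (Ezr), which links the membrane to actin. Tjp1 encodes ZO-1, a scaffold at the cell junctions that later seals the trophectoderm.

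The promoters of Prkci, Pard3 and Prkcz are shown because their transcripts made the largest falls (Prkci and Pard3) and the only rise (Prkcz) of the 10 genes between WT oocytes and WT 8c embryos on the spike-in scale. The sequences are the 250 bases before the outermost RefSeq start of each gene in GRCm38.p6, read 5′ to 3′ on the gene's strand. The capitals mark CCAAT (read as ATTGG where it lies on the other strand), GGGCGG (likewise CCGCCC) and CACCTG (likewise CAGGTG), and no match overlaps another.
Prkci: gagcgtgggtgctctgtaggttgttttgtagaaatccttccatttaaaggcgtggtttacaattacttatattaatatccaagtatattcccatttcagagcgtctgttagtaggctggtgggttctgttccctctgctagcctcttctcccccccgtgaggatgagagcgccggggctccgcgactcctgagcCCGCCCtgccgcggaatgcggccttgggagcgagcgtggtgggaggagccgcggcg
Pard3: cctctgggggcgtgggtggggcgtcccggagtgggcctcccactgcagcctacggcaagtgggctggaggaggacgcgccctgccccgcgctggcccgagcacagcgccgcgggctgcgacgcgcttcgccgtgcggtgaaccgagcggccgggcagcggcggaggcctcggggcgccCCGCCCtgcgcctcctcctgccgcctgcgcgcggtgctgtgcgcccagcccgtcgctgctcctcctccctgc
Prkcz: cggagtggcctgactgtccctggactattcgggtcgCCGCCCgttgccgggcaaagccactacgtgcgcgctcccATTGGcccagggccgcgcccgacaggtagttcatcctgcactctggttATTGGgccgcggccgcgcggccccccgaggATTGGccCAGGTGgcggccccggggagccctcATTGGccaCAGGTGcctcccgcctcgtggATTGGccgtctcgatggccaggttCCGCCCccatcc
They lie at chr3:30995521-30995770 (plus strand), chr8:127063806-127064055 (plus strand) and chr4:155361429-155361678 (minus strand). RefSeq gives 1 start for Prkci, 2 for Pard3 and 3 for Prkcz, and a count per gene does not say which start was used. The Prkcz window held 5 CCAAT, 2 GGGCGG and 2 CACCTG matches. The Prkci and Pard3 windows held 1 GGGCGG match each and none of the other 2 motifs. These counts hold for the outermost starts only. The window of the other Pard3 start held 1 CCAAT, 0 GGGCGG and 3 CACCTG matches, and those of the other Prkcz starts held 0 CCAAT matches. The window of Pard6b, which fell between WT oocytes and WT 8c embryos, held 3 CCAAT, 3 GGGCGG and 2 CACCTG matches. Of all 32851 promoter windows of this length, 33.8% held CCAAT, 32.7% GGGCGG and 17.2% CACCTG. Matches to the PLAG1 consensus, searched on both strands with a spacer of 6 to 8 bases, numbered 1 in the Prkci window, 2 in the Pard3 window and 0 in the Prkcz window, against 16.8% of all windows with at least 1. Entries were at hand for 8 of the 10 genes, all but Cdh1 and Ctnna1, and among the other 5 the outermost window of Ctnnb1 held 1 match to the PLAG1 consensus and that of Tjp1 held 3.

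In mm9, the build of the count table, the genes lie at chr8:109127250-109194147 (Cdh1, plus strand), chr18:35278566-35414429 (Ctnna1, plus), chr9:120842518-120869625 (Ctnnb1, plus), chr2:84440938-84490897 (Ctnnd1, minus), chr7:72441051-72516130 (Tjp1, minus), chr17:6942480-6987129 (Ezr, minus), chr8:129587956-130136186 (Pard3, plus), chr2:167906504-167926703 (Pard6b, plus), chr3:30894693-30951662 (Prkci, plus) and chr4:154634227-154735537 (Prkcz, minus), and counts were made over whole genes.

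Of the 90 samples 78 were kept: 16 WT and 14 matPlag1KO oocytes, 11 and 11 embryos at 2c, and 15 and 11 at 8c. The kept samples held 92475 to 2502421 gene counts (median 422526) and 6645 to 15428 spike-in counts. Group medians of gene counts at MII, 2c and 8c were 395023, 148473 and 564009 in WT. In matPlag1KO they were 649899, 163626 and 393914. Numbers of samples with a count of a gene are not adjusted for this depth. Reads of Plag1 itself were present in all 16 WT oocytes (326 counts) and in 3 of the 14 matPlag1KO oocytes (4 counts). The 2c embryos went the other way, with reads in 9 of the 11 labelled matPlag1KO (91 counts) against 1 of the 11 WT (1 count), and 8c embryos held them in 5 of 15 WT and 4 of 11 matPlag1KO. Embryos labelled matPlag1KO carry a WT paternal allele, so that reads of Plag1 do not by themselves check the 2c labels. The labels were used as given, and the sign of every genotype difference at 2c rests on them. The summed level of 7 oocyte markers had group medians of 3768 and 9060 CPM (counts scaled to each sample's gene counts) in WT and matPlag1KO oocytes and of 57.3 and 90.4 CPM at 8c. Of 12 cumulus and granulosa cell markers 5 to 8 had a count in each group, with group medians of their sum between 19.5 and 44.9 CPM and single samples from 0 to 106 CPM, and Ptx3 was at 0 in every kept sample. Cyp19a1 had the highest mean of these markers in oocytes (16.8 CPM in WT and 14.5 CPM in matPlag1KO). Amhr2 had the highest in embryos, with 41.3 and 32.9 CPM at 2c and 23.3 and 17.2 CPM at 8c, against 0 and 0.0775 CPM in oocytes. The samples were sequenced in 2 multiplexed libraries, libA and libB, at numbered positions such as A1 or F3. No position was shared between stages, so that a difference between stages and a difference between positions cannot be told apart. Both genotypes shared 14 of 16 positions in oocytes, 2 of 14 at 2c and 0 of 14 at 8c, so that at 8c genotype and position cannot be told apart either. Stages were compared on the spike-in scale, as counts per 10000 spike-in counts, which also moves with the RNA content of the whole oocyte or embryo. Within a stage genotypes were compared on the scale of gene counts.

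On the spike-in scale the genes of the cadherin-catenin complex were low at the 2c stage. In WT, Cdh1 ranged from 1.09 to 778 counts per 10000 spike-in counts in oocytes (median 15.4), from 0 to 9.56 at 2c (median 3.59) and from 15.9 to 191 at 8c (median 63.8). Oocytes and 2c embryos overlapped, whereas every WT 8c embryo was above every WT 2c embryo. Cdh1 fell by 4.81 on the log2 scale between MII and 2c (SE 0.75, adjusted p = 4.37e-08 in edgeR's quasi-likelihood test) and rose between 2c and 8c by 4.11 (SE 0.73, adjusted p = 1.55e-06). Both values use the same 2c embryos. The fall differed in size between the multiplexed libraries, a difference that was not tested: it was -5.78 in libA and -1.54 in libB (adjusted p = 0.0529). Between MII and 8c the fitted difference of Cdh1 was -0.70 (adjusted p = 0.235) while the median was higher at 8c, and it was -1.84 in libA and 2.72 in libB, both past the threshold (adjusted p = 0.0205 and 7.83e-05). WT oocytes stood in row A of libA and in row B of libB, so that in these comparisons library and row of the oocytes cannot be told apart.

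**Figure D1:**
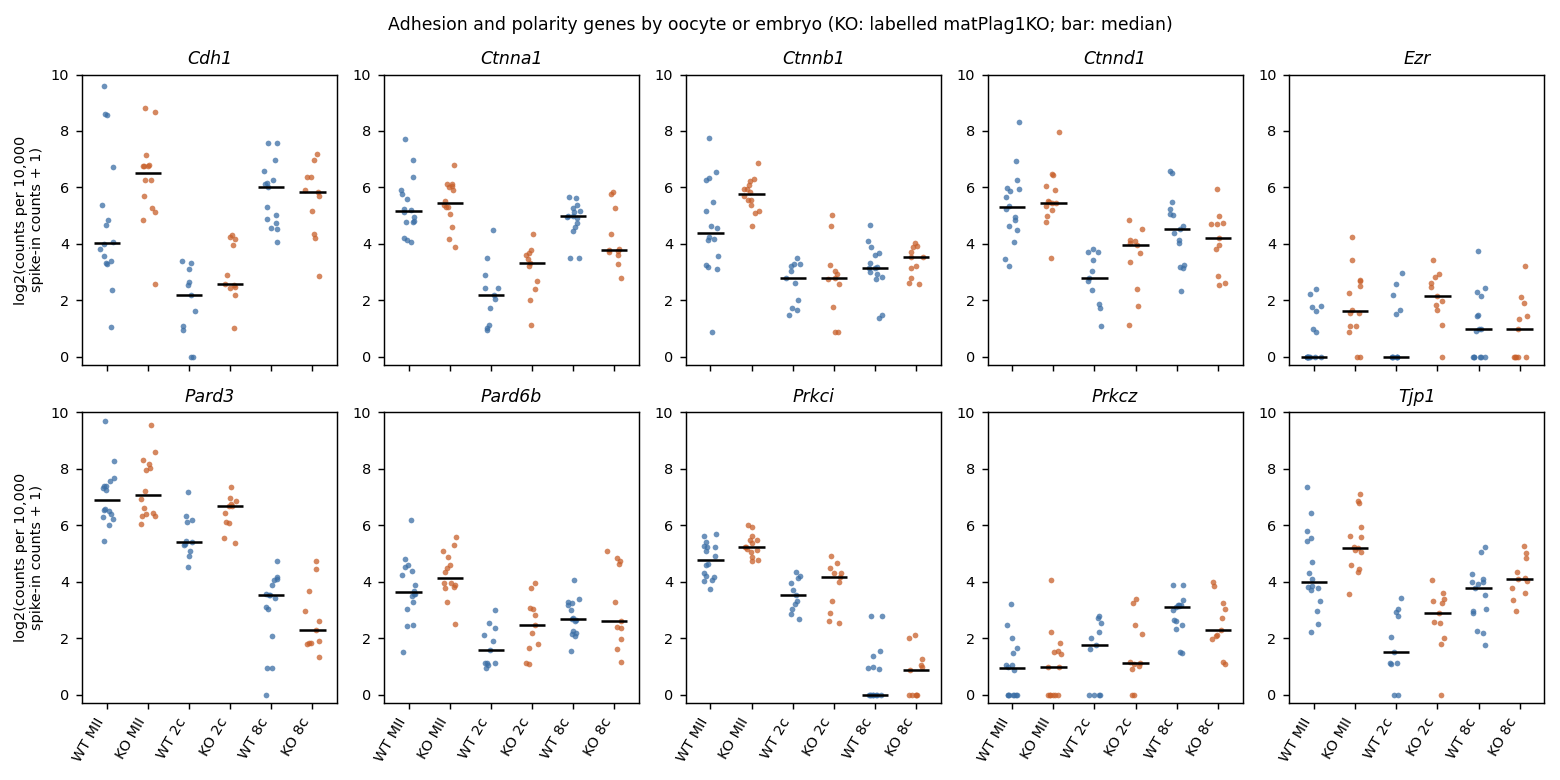
Level of each gene in each kept oocyte or embryo, as log2 of counts per 10000 spike-in counts plus 1, by group; points are samples, bars are group medians, and KO stands for matPlag1KO. Cdh1 was lowest at 2c in both genotypes, Pard3 and Prkci were lowest at 8c, and Prkcz had a count in every 8c embryo.

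Ctnna1 ranged from 15.8 to 208 counts per 10000 spike-in counts in WT oocytes (median 35.0), from 0.91 to 21.6 at 2c (median 3.58) and from 10.4 to 49.5 at 8c (median 30.9). It fell by 3.27 between MII and 2c and rose by 2.48 between 2c and 8c (adjusted p = 2.39e-09 and 2.28e-06). Part of this gene overlaps Lrrtm2, which held 280 counts against 2514 for Ctnna1, and as the sources used here do not say whether counting used the strand, the counts of the pair are uncertain. Ctnnd1 had WT medians of 38.5, 5.97 and 22.04 at MII, 2c and 8c. It fell by 3.10 and then rose by 2.12 (adjusted p = 2.37e-07 and 2.56e-04). Ctnnb1, which also serves Wnt signalling, had WT medians of 20.2, 5.98 and 7.93. It fell by 2.83 between MII and 2c (adjusted p = 6.35e-07), but its difference between 2c and 8c did not pass the test (0.66, 95% interval -0.27 to 1.59, adjusted p = 0.243), so that of the 4 genes of the complex it was the only one in WT not called higher at 8c than at 2c. On the scale of gene counts Ctnnb1 averaged 29.3 CPM at 2c and 24.9 CPM at 8c in WT (log2 fold change -0.24, adjusted p = 0.614). Between MII and 8c on the spike-in scale the log2 fold change was -2.17 for Ctnnb1 (adjusted p = 3.14e-06), -0.80 for Ctnna1 and -0.99 for Ctnnd1 (adjusted p = 0.0408 and 0.0268). In libB alone none of these 3 was called between MII and 8c (-0.41, 0.07 and -0.42, adjusted p = 0.445, 0.919 and 0.484).

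Tjp1 ranged from 3.64 to 162 counts per 10000 spike-in counts in WT oocytes (median 14.8), from 0 to 9.64 at 2c (median 1.82) and from 2.40 to 36.2 at 8c (median 12.7). The groups overlapped at each step. Tjp1 fell by 3.21 between MII and 2c and rose by 1.91 between 2c and 8c (adjusted p = 3.38e-07 and 0.00161), the rise being 2.11 with an adjusted p of 0.0601 in libA alone. Its log2 fold change from MII to 8c was -1.30 (adjusted p = 0.00533), and -0.09 in libB alone (adjusted p = 0.900). Ezr was close to the limit of detection, with 189 counts over all 78 kept samples. Among WT samples 7 of 16 oocytes, 5 of 11 embryos at 2c and 9 of 15 at 8c held any, with a highest value of 12.3 counts per 10000 spike-in counts, and none of its WT stage differences passed the test (0.65, 0.20 and 0.85 for MII to 2c, 2c to 8c and MII to 8c, adjusted p = 0.438, 0.852 and 0.247). The intervals of Ezr were wide, such as -0.82 to 2.12 for MII to 2c, so that changes of either sign within them are not excluded.

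Of the Par complex genes, Pard3 and Prkci were lowest at 8c. Pard3 held more counts than any other of the 10 genes (7996 over the kept samples), and ranged in WT from 42.4 to 831 counts per 10000 spike-in counts in oocytes (median 122), from 21.9 to 143 at 2c (median 41.1) and from 0 to 25.7 at 8c (median 10.6). Every WT 8c embryo was below every WT oocyte. It fell by 1.66 between MII and 2c and fell by 2.45 between 2c and 8c (SE 0.44 and 0.43, adjusted p = 6.85e-04 and 1.64e-06). Prkci ranged from 12.6 to 50.6 in WT oocytes (median 26.6), from 5.39 to 19.2 at 2c (median 10.5) and from 0 to 5.97 at 8c, where 7 of 15 embryos had a count. It fell by 1.30 and then fell by 3.12 (SE 0.42 and 0.46, adjusted p = 0.00503 and 2.24e-08), with a log2 fold change of -4.42 from MII to 8c. Its first fall missed the threshold in libA and in libB taken alone (-1.54 and -1.13, adjusted p = 0.0555 and 0.0554), while its fall from 2c to 8c passed in each. The step from MII to 2c of both genes was close to the median of all genes (-1.46). Relative to gene counts they did not fall there in WT: Pard3 averaged 290.7 CPM ± 137.6 (SD, n = 16) in oocytes and 290.3 CPM ± 198.2 (SD, n = 11) at 2c, and Prkci 58.1 and 58.3 CPM.

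Prkcz, the other aPKC gene, was scarce in oocytes and present in every embryo at 8c. In WT it had a count in 9 of 16 oocytes, 7 of 11 embryos at 2c and 15 of 15 at 8c, with medians of 0.91, 2.39 and 7.62 counts per 10000 spike-in counts. The WT means of Prkcz were 3.76, 12.6 and 19.7 CPM, and the median depth of WT samples was lowest at 2c and highest at 8c. Prkcz was higher at 8c than at MII by 2.15 on the log2 scale (SE 0.58, adjusted p = 7.26e-04), while its difference between 2c and MII (0.70) and the one at 8c against 2c (1.46, adjusted p = 0.0514) did not pass the test. The latter was called in 4 of 8 alternatives: with the multiplexed library as a term (1.48, adjusted p = 0.0480), with all samples kept (adjusted p = 0.0249), with only the groups compared (adjusted p = 0.00993) and by DESeq2 on spike-in size factors (adjusted p = 0.0291). It was not called in libA alone (1.71, adjusted p = 0.252) or in libB alone (1.42, adjusted p = 0.117). Nor was it called on the scale of gene counts (0.62, adjusted p = 0.390) or without the gene filter. Pard6b, the scaffold that activates aPKC, had WT medians of 11.3, 2.02 and 5.46. It fell by 2.57 between MII and 2c (adjusted p = 5.62e-06) and rose by 1.19 between 2c and 8c (adjusted p = 0.0368), a call that was lost in libA (0.99, adjusted p = 0.358) and libB (1.27, adjusted p = 0.109) taken alone.

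The counts of the aPKC genes were mostly of Prkci in oocytes and 2c embryos and mostly of Prkcz in 8c embryos. Prkci made up 95.2% of the 496 Prkci and Prkcz counts in WT oocytes (exact 95% binomial interval 92.9% to 96.9%), 81.9% of 144 at 2c (74.7% to 87.9%) and 14.5% of 145 at 8c (9.19% to 21.3%). In single WT samples the share ran from 65.4% to 100% in oocytes, from 63.6% to 100% at 2c and from 0% to 53.8% at 8c, so that the 8c embryos did not overlap the earlier samples. In matPlag1KO the pooled share was 94.9% in oocytes, 85.4% at 2c and 13.9% at 8c, where the highest 8c embryo (75%) lay above the lowest 2c embryo (42.9%). The intervals cover counting error only, and a share of counts of 2 genes is not a share of protein. Pard3 held 93.0% to 96.9% of Pard3 and Pard3b counts in each of the 6 groups, and Pard6b held 39.1% and 40.8% of Pard6a, Pard6b and Pard6g counts in WT and matPlag1KO oocytes and 61.7% to 73.2% in the 4 embryo groups. In single samples the Pard6b share ran from 9.52% to 80.8% in WT oocytes (median 45.0%) and from 19.7% to 76.5% in matPlag1KO oocytes (median 49.0%), and the embryo groups, with medians of 60% to 66.7% and single samples from 11.1% to 100%, overlapped them.

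**Figure D2:**
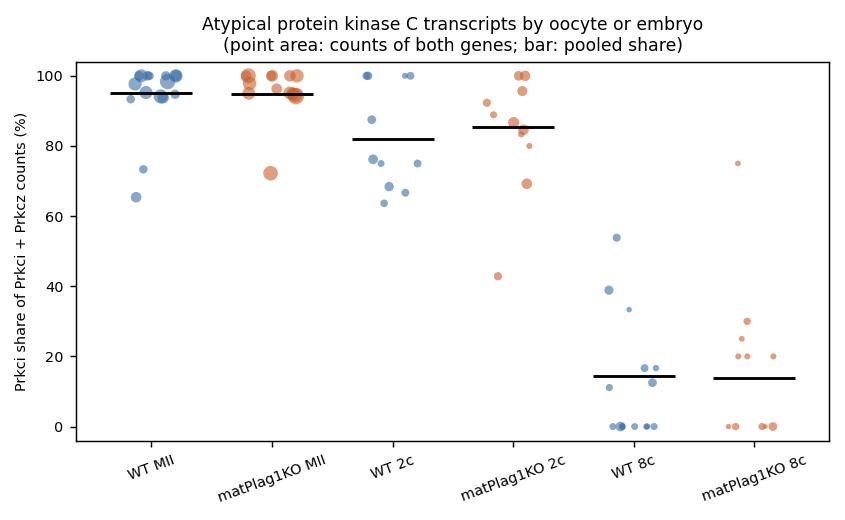
Share of Prkci in the counts of Prkci and Prkcz, in percent, for each kept oocyte or embryo by group; point area grows with the counts of both genes and bars give the pooled share. The pooled share was 95.2% in WT oocytes and 14.5% in WT 8c embryos.

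Over the 10 genes together, 8 fell and 0 rose between MII and 2c in WT, where 51.3% of all tested genes fell and 14.1% rose. The median of the 10 log2 fold changes was -2.70, against -1.46 over all genes. Between 2c and 8c in WT 5 rose (31.9% of all genes) and 2 fell (16.2%), with a median of 1.32 against 0.53. Between MII and 8c 1 rose (27.1%) and 7 fell (43.6%), with a median of -1.14 against -0.67. On the scale of gene counts (TMM factors) in place of spike-in counts, 2 rose and 6 fell between MII and 2c, where 27.5% of all genes rose and 23.1% fell: Ezr and Prkcz rose by 2.15 and 1.85, Cdh1, Ctnna1, Ctnnb1, Ctnnd1, Pard6b and Tjp1 fell on both scales, and the calls of Pard3 (0.00) and Prkci (0.02) were lost. Between 2c and 8c on that scale 4 rose and 2 fell, against 21% and 28.9% of all genes, and Cdh1, Ctnna1, Ctnnd1 and Tjp1 rose and Pard3 and Prkci fell on both scales. Between MII and 8c Ezr and Prkcz rose and Ctnnb1, Pard3 and Prkci fell on that scale, with 36% of all genes higher and 36.3% lower. The median over all genes on that scale was -0.03 between MII and 2c, -0.12 between 2c and 8c and 0.00 between MII and 8c.

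In matPlag1KO 8 genes fell and 0 rose between MII and 2c (50.3% and 13.5% of all genes), led by Cdh1 (-3.74), Tjp1 (-2.89) and Ctnnb1 (-2.65). Cdh1 had medians of 91.1, 5.00 and 55.8 counts per 10000 spike-in counts at MII, 2c and 8c. Between 2c and 8c 3 rose, Cdh1 (2.74), Tjp1 (1.41) and Ctnna1 (1.30), and 2 fell, Prkci (-3.85) and Pard3 (-3.53), where 29.1% of all genes rose and 19.5% fell. Ctnnd1 was not called there (0.66, adjusted p = 0.278), nor was Pard6b (1.103, adjusted p = 0.0516), which was called with all samples kept (1.27, adjusted p = 0.0207) and by DESeq2 on spike-in size factors (1.11, adjusted p = 0.0398). The 2c to 8c calls of Ctnna1 and Tjp1 were lost in libA alone (adjusted p = 0.201 and 0.407) but kept in libB alone (adjusted p = 0.0330 and 0.0128). They were also lost on the scale of gene counts (adjusted p = 0.280 and 0.141). Between MII and 8c Prkcz rose by 1.43 and 6 genes fell (24.1% and 45.2% of all genes), with Prkci at -5.19 and Pard3 at -4.75. The call of Prkcz was lost in libA (1.08, adjusted p = 0.301) and libB (1.92, adjusted p = 0.0514) taken alone. On the scale of gene counts Pard3 rose between MII and 2c in matPlag1KO by 0.76 (adjusted p = 0.0436), 3 genes rose and 3 fell at that step, 1 rose and 3 fell between 2c and 8c, and 1 rose and 3 fell between MII and 8c. The corresponding shares of all genes on that scale were 29.1% and 19.3%, 21.2% and 30.3%, and 34.6% and 34%.

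**Figure D3:**
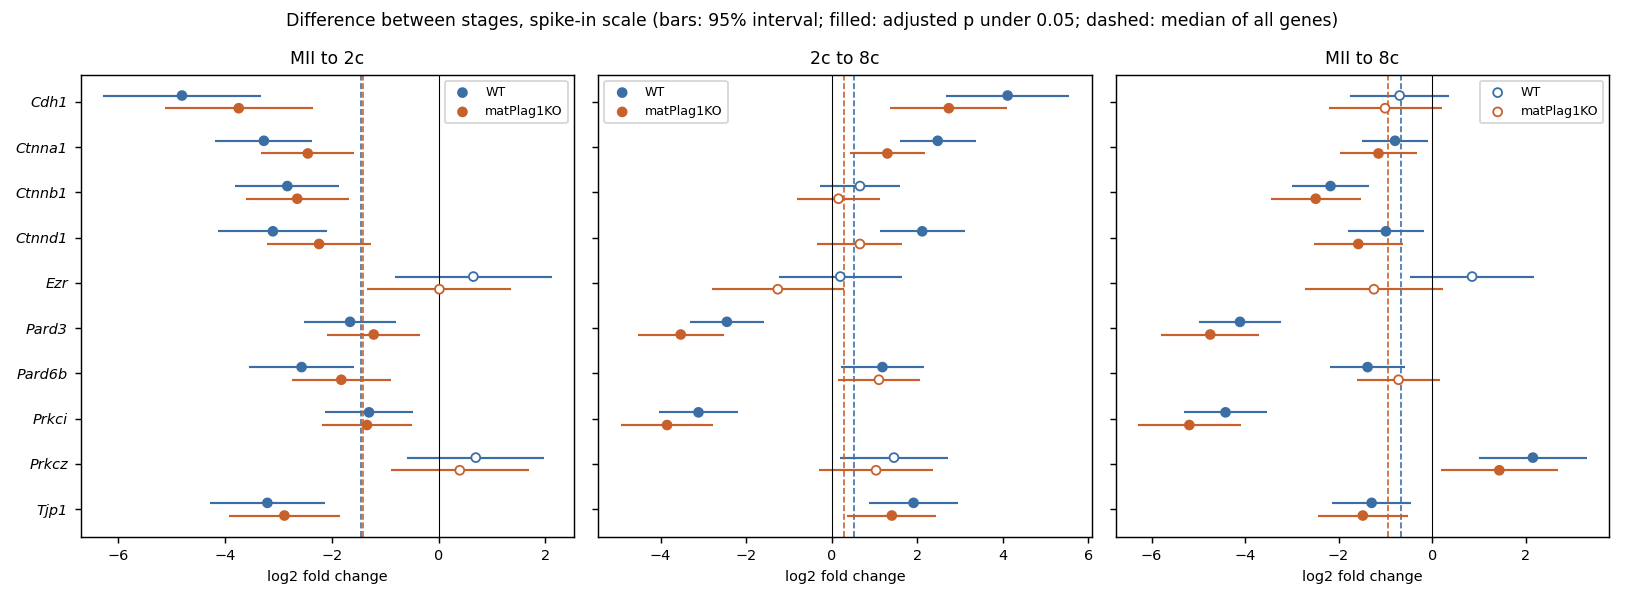
Log2 fold change of each gene between stages on the spike-in scale in WT and matPlag1KO; points are estimates, bars 95% intervals, filled points have an adjusted p under 0.05, and dashed lines mark the median of all genes in each genotype. Cdh1 fell by 4.81 and rose by 4.11 in WT, and Pard3 and Prkci lay below the median of all genes from 2c to 8c and from MII to 8c.

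In oocytes 0 of the 10 genes differed between matPlag1KO and WT at an adjusted p under 0.05, where 0.781% of all genes did. At an unadjusted p under 0.05 (10.2% of all genes) it was 1, Ezr, with a count in 12 of 14 matPlag1KO and 7 of 16 WT oocytes and a log2 fold change of 1.39 (SE 0.63, adjusted p = 0.416). The estimates ran from -0.47 (Ctnna1) to 1.39, with 95% intervals of -1.01 to 0.07 for Ctnna1, which was the narrowest, -0.80 to 0.37 for Pard3 and -0.68 to 0.58 for Prkci. Cdh1 went from 3.35 to 528 CPM in WT oocytes (median 38.4) and from 10.6 to 573 CPM in matPlag1KO oocytes (median 105), with a difference of 0.28 (SE 0.42, adjusted p = 0.964).

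Samples at the same position of the 2 multiplexed libraries held Cdh1 levels near each other at some positions and apart at others. The oocytes at position A8 of libA (WT) and libB (matPlag1KO) held 528 and 573 CPM and those at A5 held 348 and 260 CPM. Those at A2 held 32.5 and 10.6 CPM and those at A1 held 470 and 76.2 CPM. In row B libA held the matPlag1KO oocyte. Its pairs were apart to unlike degrees, such as 97.8 and 48.9 CPM at B1, 185 and 36.0 CPM at B5, 64.3 and 3.35 CPM at B6 and 156 and 23.4 CPM at B8. The 2c embryos at D2, both matPlag1KO, held 74.7 and 74.1 CPM, whereas those at C2, both WT, held 25.9 and 0 CPM. The 8c embryos at F3, both WT, held 444 and 407 CPM, and those at F2, both WT, held 42.9 and 78.2 CPM. WT oocytes stood in row A of libA and row B of libB, and matPlag1KO oocytes in the opposite rows. In WT the mean was 205 CPM ± 209 (SD, n = 8) in libA and 29.3 CPM ± 13.5 (SD, n = 8) in libB, and in matPlag1KO it was 117 CPM ± 47.8 (SD, n = 7) and 173 CPM ± 193 (SD, n = 7). The pooled genotype difference of Cdh1 therefore joined a value of -0.80 within libA (adjusted p = 0.584) and one of 2.52 within libB (adjusted p = 8.67e-04), where 0.916% and 3.05% of all genes were called. With the 14 shared positions as a block and the multiplexed library as a term, Cdh1 was higher in matPlag1KO oocytes by 0.77 on the log2 scale (SE 0.18, 95% interval 0.41 to 1.13, adjusted p = 0.00166 in edgeR), the only one of the 10 genes called, where 6.1% of all genes were called. The matPlag1KO oocyte had the higher CPM at 10 of the 14 positions, at 3 of 7 in row A and 7 of 7 in row B. Row and library together set the genotype of an oocyte. In the blocked fit a genotype difference and a library difference that varies by row therefore cannot be told apart. Ctnna1 had the higher CPM in the matPlag1KO oocyte at 2 of 14 positions and Ctnnb1 and Tjp1 at 11 each, with blocked differences of -0.45, 0.48 and 0.44 (adjusted p = 0.134, 0.140 and 0.225).

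**Figure D4:**
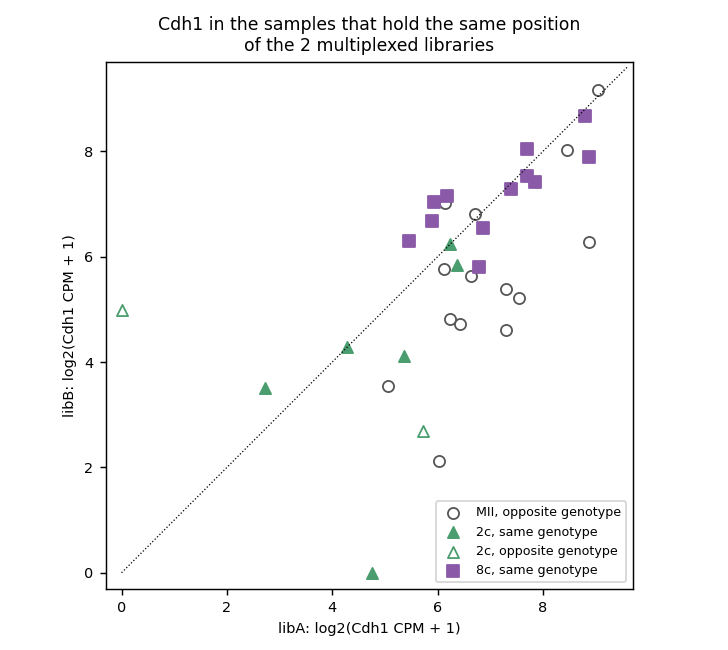
Cdh1 level, as log2(CPM + 1), in the samples that hold the same position of libA (x axis) and libB (y axis); each point is a position, open points pair opposite genotypes, and the dotted line marks equal levels. Position A8 held 528 and 573 CPM and F3 444 and 407 CPM, whereas A1 held 470 and 76.2 CPM.

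At 2c 0 of the 10 genes differed between the embryos labelled matPlag1KO and WT, where 4.92% of all genes did, and 0 had an unadjusted p under 0.05 (20.5% of all genes). All 10 estimates were above 0, from 0.06 (Prkcz) to 1.00 (Ezr), with a median of 0.62 against 0.12 over all genes, of which 54% were above 0. The smallest adjusted p was that of Pard6b, which ranged from 4.56 to 34.5 CPM in WT (median 11.5) and from 4.62 to 60.02 CPM in matPlag1KO (median 16.3), a difference of 0.89 (95% interval -0.01 to 1.79, adjusted p = 0.247). Tjp1 differed by 0.82 (-0.07 to 1.71) and Cdh1 by 0.95 (-0.25 to 2.15). Differences inside these intervals, which are not adjusted for the number of genes, are not excluded, and 0 lay inside each. On the spike-in scale the genotype median over all genes moved to 0.30 in oocytes and 0.28 at 2c and that of the 10 genes to 0.36 and 0.82, and none of the 10 was called. In libA alone Pard6b (-0.26) and Prkci (-0.09) were below 0 and in libB alone Prkcz (-0.34). The marker levels of the same embryos, not tested, overlapped between the groups: the summed level of oocyte markers had a median of 1005 CPM in WT (664 to 1712) and 1475 CPM in matPlag1KO (647 to 5819), that of 5 2c markers 203 and 498 CPM (78.1 to 990 and 241 to 1423), and that of 4 8c markers 426 and 184 CPM (201 to 627 and 97.9 to 355), with Tcstv3 at 0 in both groups. Single markers within the oocyte and 8c lists went different ways: Bmp15 averaged 394 CPM in WT and 1400 CPM in matPlag1KO while Zp3 averaged 143 and 74.4 CPM, and Dppa4 averaged 368 and 141 CPM while Krt18 averaged 4.92 and 5.40 CPM. Of the 2c list, Zscan4c, Zscan4d, Zfp352 and Tdpoz4 each averaged higher in matPlag1KO, with 277 and 303 CPM for Zfp352 and 16.7 and 170 CPM for Tdpoz4. Upp1, listed with the 8c markers, averaged 62.2 CPM in WT at 2c and 2.09 CPM at 8c. Their part in the results for the 10 genes was not tested.

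At 8c 0 of the 10 genes differed between the genotypes, where 1.74% of all genes did, and 1 had an unadjusted p under 0.05 (14.3% of all genes). This was Pard6b, which ranged from 5.21 to 42.9 CPM in WT (median 16.6) and from 5.04 to 75.1 CPM in matPlag1KO (median 20.9), a difference of 0.88 (SE 0.37, adjusted p = 0.228). Ctnna1 ranged from 41.9 to 123 CPM in WT (median 78.6) and from 24.4 to 101 CPM in matPlag1KO (median 40.2), a difference of -0.60 (95% interval -1.21 to 0.00, adjusted p = 0.347). Cdh1 had medians of 141 and 155 CPM and differed by -0.19 (-1.11 to 0.73).

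**Figure D5:**
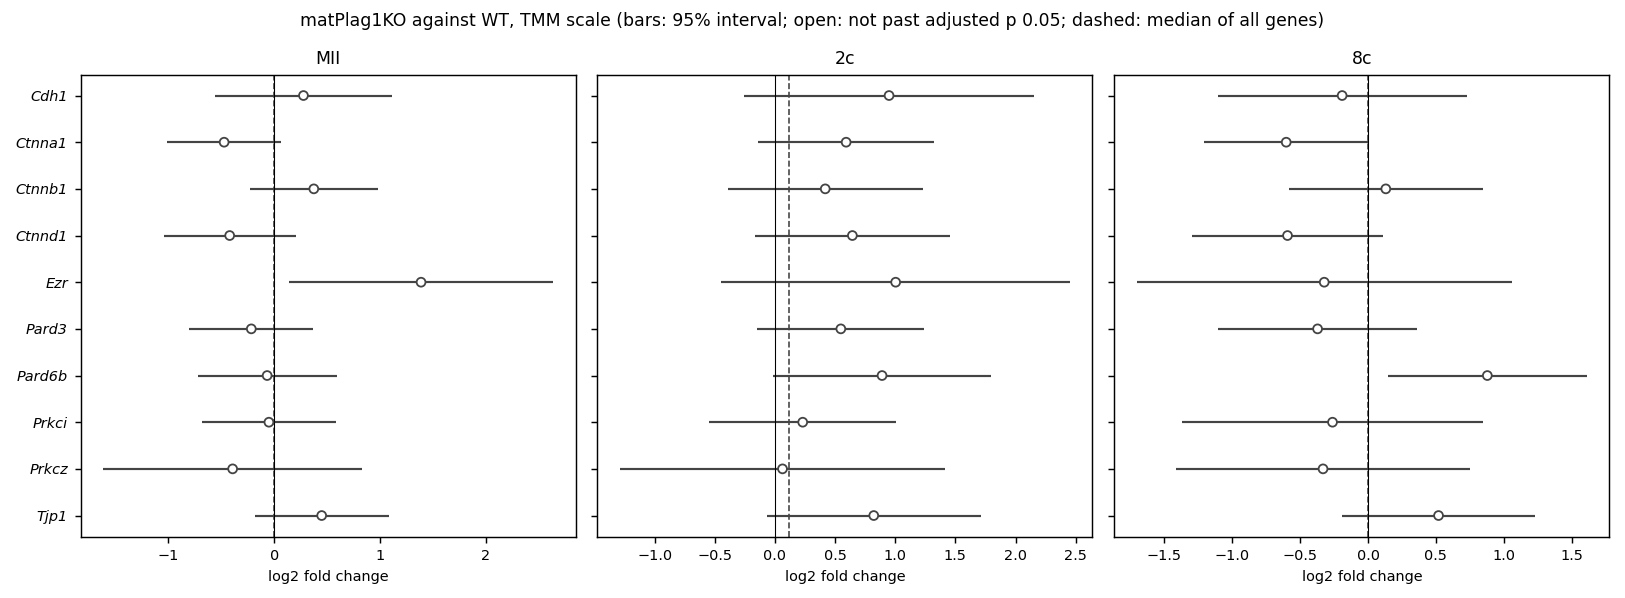
Log2 fold change of each gene in matPlag1KO against WT at MII, 2c and 8c on the scale of gene counts; points are estimates, bars 95% intervals, all points are open because 0 of the 10 genes had an adjusted p under 0.05, and dashed lines mark the median of all genes. All 10 estimates were above 0 at 2c.

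The change of the genotype difference between stages was tested as an interaction. At 2c against MII 0 of the 10 genes passed (3.31% of all genes) and at 8c against 2c 0 passed (2.3%). Both tests share the 2c embryos. At an unadjusted p under 0.05 (17.7% and 17.9% of all genes) there were 2 genes in each: Ctnna1 with 1.07 (adjusted p = 0.188) and then -1.19 (adjusted p = 0.153), and Ctnnd1 with 1.06 (adjusted p = 0.259) and then -1.24 (adjusted p = 0.197). DESeq2 with its own size factors called Ctnna1 in both, with 1.34 (adjusted p = 0.0295) and -1.34 (adjusted p = 0.0398), where it called 4.42% and 3.96% of all genes. In edgeR a difference in stage change between WT and matPlag1KO was thus not shown for any of the 10 genes.

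Other genes of junctions, polarity and cortex were read from 4 lists of 48 genes, all of which passed the filter. Between the genotypes 0 of 48 were called in oocytes, 2 at 2c and 1 at 8c, where 0.781%, 4.92% and 1.74% of all genes were called. At 2c Crb3, an apical membrane protein of the Crumbs complex, was lower in embryos labelled matPlag1KO (103 CPM ± 22.5, n = 11, against 197 CPM ± 97.1, n = 11, SD, log2 fold change -0.94, adjusted p = 0.0368), and Llgl1, a basolateral antagonist of aPKC, was higher (62.0 CPM ± 45.4 against 23.4 CPM ± 24.3, log2 fold change 1.46, adjusted p = 0.0468). At 8c the actin gene Actg1 was lower (65.0 CPM ± 52.5, n = 11, against 439 CPM ± 723, n = 15, log2 fold change -2.73, adjusted p = 0.00275). In the same 8c embryos the summed level of the 4 8c markers had a median of 622 CPM in WT (388 to 840) and 431 CPM in matPlag1KO (287 to 713), and the keratin genes Krt8 and Krt18 averaged 76.8 and 48.2 CPM in WT and 19.99 and 12.8 CPM in matPlag1KO. Of the other markers in that list, Dppa4 averaged 480 CPM in WT and 409 CPM in matPlag1KO, and Upp1 averaged 2.09 and 4.61 CPM. The part of these markers in the result for Actg1 was not tested. In the WT stage comparisons 6 of 48 list genes rose and 32 fell between MII and 2c, 22 rose and 8 fell between 2c and 8c, and 18 rose and 20 fell between MII and 8c, where 14.1% and 51.3%, 31.9% and 16.2%, and 27.1% and 43.6% of all genes rose and fell. On the scale of gene counts these were 11 and 13, 14 and 15, and 22 and 19, where 27.5% and 23.1%, 21% and 28.9%, and 36% and 36.3% of all genes rose and fell.

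In the tight junction list 7 of 10 genes rose and 0 fell between 2c and 8c in WT, with a median log2 fold change of 2.24 against 0.53 over all genes, of which 31.9% rose and 16.2% fell. The claudin genes Cldn4 and Cldn7, which encode strand proteins of tight junctions, rose by 7.68 and 7.23, and F11r, which encodes the junctional adhesion molecule JAM-A, by 3.74 (Cldn7 and F11r were picked after their values were seen). Cldn4 had means of 4.11 CPM at 2c and 476 CPM at 8c. Of the cell cortex list 8 of 12 rose and 1 fell at that step, with Actb highest (5.58) and Rock1 lowest (-2.47). Of the adherens junction list 4 of 12 rose and 4 fell, with the nectin partner Mllt4 at 2.87 and Epcam at -2.46. Of the other polarity genes 3 of 14 rose and 3 fell, with Mark3 at 1.31 and Mpp5 at -1.85. On the scale of gene counts 5 tight junction, 6 cell cortex, 3 adherens junction and 0 polarity genes rose at that step and 0, 3, 6 and 6 fell (21% and 28.9% of all genes). From MII to 2c 9 adherens junction, 5 tight junction, 10 polarity and 8 cell cortex genes fell, and 1, 2, 3 and 0 rose (51.3% and 14.1% of all genes). Epcam (5.03), Cldn6 (4.79) and Mark3 (2.76) were highest, and Pvrl3 (-5.22), Rdx (-5.34), Pard6a (-4.93) and Cgn (-2.76) lowest in their lists. From MII to 8c Pvrl3, a nectin gene, was lower by 7.76 and Rdx, which encodes the ezrin relative radixin, by 6.04, Mark2 by 4.11 and Cgn by 2.77, whereas Cldn7 was higher by 6.39, Mark3 by 4.07, Actb by 2.40 and Pvrl2 by 1.47. Each of these named differences had the same direction on the scale of gene counts, where that of Mark3 from 2c to 8c (0.43, adjusted p = 0.432) was no longer called.

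The likeness of other genes to the 10 was described by Pearson's r of log2(CPM + 1) over all 78 kept samples, among 8612 genes that reached an average of 20 CPM in any group. The samples share stage, depth and position, so these values describe patterns only. Prkci was most like Angptl2 (0.93), Cdc42se2 (0.92) and Wee2 (0.92), the last an inhibitory kinase of the oocyte, and Pard3 was most like C86187, Tcl1b2 and Tcl1b3 (0.90 each). Cdh1 was most like Atg2a (0.75), Ak4 (0.73) and Xrcc1 (0.70), and Prkcz most like Eif6 (0.71) and Fbxo6 (0.70). For the catenins the highest values were 0.69 (Ctnna1 with Elp3), 0.64 (Ctnnb1 with Arrdc1) and 0.55 (Ctnnd1 with Dusp19), and for Tjp1, Pard6b and Ezr 0.65 (Bsdc1), 0.51 (Ier5l) and 0.48 (Gm11487). Among the 10 genes Pard3 and Prkci had the highest r, 0.84, which was 0.17 after the group means had been removed.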

How the data were processed

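Single oocytes and embryos were sequenced from transcript 5′ ends (STRT) in 2 multiplexed libraries. The authors filtered and demultiplexed the reads, joined duplicates by molecular identifier, mapped them to mm9 with TopHat and counted them per gene with HOMER on UCSC genes plus spike-in RNAs, and they deposited the raw counts of 90 samples over 24422 genes, with 92 spike-in RNAs beside them. Aligner and counter versions and the use of strand in counting are not given in the sources used here.

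From these counts, 12 samples were left out whose median log2 CPM was under 0 over the genes that reached 1 CPM in 5 or more samples, and the test took every gene that reached 1 CPM in 5 or more of the kept samples. Each edgeR (4.0.16, R 4.3.3) quasi-likelihood fit held all 6 groups. A fit with TMM factors served genotype contrasts and interactions, and a separate fit with spike-in totals as library sizes served stage contrasts. P-values were adjusted by Benjamini-Hochberg over 16511 genes and called at an adjusted p under 0.05. The procedure was tested on simulated data, where it recovered some but not all of the changes put in and called some unchanged genes. Gene counts of kept samples ran from 92475 to 2502421, and intervals on shares of counts are exact binomial intervals that cover counting error only. As samples are not tied to females, p-values measure the spread between samples. No 2 kept samples of a group agreed within sampling noise (lowest chi-square per degree of freedom 3.54).

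Oocytes of opposite genotype shared 14 positions of the multiplexed libraries. With group-by-library means removed, the deviations of every same-position pair correlated above 0.1 over 8418 genes (lowest 0.148; with group means alone removed lowest -0.056, with 12 of 14 pairs above 0.1), so the position served as a block, with the multiplexed library as a term, in an alternative fit.

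Alternatives were the other scaling, all samples kept, no gene filter, the multiplexed library as a term, libA or libB alone, only the groups compared, DESeq2 (1.42.0) and the block. The text names the 10 genes, Plag1, list genes called between genotypes and, of each list in each WT stage comparison, the called genes with the highest and lowest log2 fold change among those reaching 20 CPM, and 1 to 3 of the 3 genes most like each of the 10; 1 gene is not reported here. The 10 genes and the lists were chosen with earlier results of these data known. RefSeq promoters are on GRCm38.p6, and no coordinate was converted between builds.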

Additional observations from a re-analysis of the deposited data

Results flagged for a closer look

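The genotype difference (matPlag1KO against WT) of 5 results differed between stages in edgeR's interaction test. Plag1 gave a result both at 2c against MII and at 8c against 2c, and the others came from the 48 list genes. Of these 48 genes 1 was called at 2c against MII, where 3.31% of all genes were called. At 8c against 2c 2 of the 48 were called, where 2.3% of all genes were called. For Plag1 the genotype difference was -5.64 on the log2 scale in oocytes and 5.59 at 2c, a difference of 11.24 (adjusted p = 6.0e-13). At 8c it was -0.07, a difference from 2c of -5.66 (adjusted p = 0.0151). For the tight junction scaffold gene Tjp3 it was -1.27 in oocytes and 1.90 at 2c, a difference of 3.17 (SE 0.85, adjusted p = 0.0226), but Tjp3 was at 0 in all 14 matPlag1KO oocytes and averaged 0.141 CPM in WT oocytes, so that the fitted value in oocytes depends on the prior count and bounds no fold, and neither stage's own difference was called (adjusted p = 0.223 and 0.0734). For the actin gene Actb it was 1.24 at 2c and -1.46 at 8c, a difference of -2.71 (SE 0.72, adjusted p = 0.0247). For the actin gene Actg1 it was 1.45 at 2c and -2.73 at 8c, a difference of -4.17 (SE 0.87, adjusted p = 0.00396).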

How the results depend on the processing

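Of 890 values of the 10 genes under the alternatives 834 kept their direction and their side of the threshold (for values not called, the side only), 34 lost and 17 gained a call and 5 reversed; of the genotype differences at 2c and 8c 80 of 80 each stayed uncalled. With TMM factors in place of spike-in totals, 5 genes in place of 8 were called between MII and 8c in WT and 4 in place of 7 in matPlag1KO, and between MII and 2c Prkci turned to 0.0201 in WT (adjusted p = 0.993) and 0.30 in matPlag1KO (adjusted p = 0.509) and Pard3 to 0.76 in matPlag1KO (adjusted p = 0.0436). Between MII and 8c 11945 in place of 11677 of all 16511 genes were called in WT and 11325 in place of 11441 in matPlag1KO. In libA alone 3 in place of 5 genes were called between 2c and 8c in matPlag1KO. Of all genes 4306 of 15073 were called there, in place of 8025 of 16511. In libB alone 5 in place of 8 were called between MII and 8c in WT, where Cdh1 turned to 2.72 and Ctnna1 to 0.0694 (adjusted p = 0.919). Of all genes 9428 of 15161 were called in that comparison, in place of 11677 of 16511. Between the genotypes in oocytes libB alone called 1 (Cdh1) in place of 0, with 3.05% of all genes called. With the position as a replicate block, 1 gene (Cdh1, 0.77) in place of 0 was called in oocytes, and the block changed no other call of the 10 genes. DESeq2 called 1 gene (Ctnna1) in place of 0 in each interaction test. Libraries taken alone hold fewer samples, and the cause was not tested for any of these changes. Over the alternatives the number of all genes called between the genotypes ran from 46 (only the groups compared) to 792 (block) in oocytes, from 0 (libA alone) to 1134 (DESeq2) at 2c and from 6 (libA alone) to 395 (only the groups compared) at 8c, against 129, 812 and 287 in the results above. Ezr held 189 counts in all and Prkcz 295, the fewest of the 10 genes.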
